A study of Mus musculus with 12 samples.

Results

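The chromatin regulators described here are 38 genes for Polycomb proteins, DNA and histone modifying enzymes, acetyl writers and erasers, and nucleosome remodelers. They were chosen by name and function from the 24028 genes of the count tables, with Chd7, the Polycomb genes and the Tet genes as the core, and all 38 were found and passed the filter on low counts in both comparisons. The choice was made with results from these same libraries known. Their levels and fold changes are therefore a description, and an adjusted p comes from the fit of all genes and is not independent support.

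RNA was sequenced from 12 bone marrow libraries of C57BL/6 mice, 3 in each of 4 groups. The iMLL-ENL mice carry a knock-in allele that expresses MLL-ENL under doxycycline, a fusion of the histone methyltransferase MLL (gene Kmt2a) with ENL, and were given doxycycline until acute leukemia developed. The 3 leukemic groups are total marrow (iMLL-ENL total), and cells sorted by flow cytometry for high (B220 HIGH) or low (B220 LOW) levels of the surface protein B220. The wt LSK group came from control mice without the fusion: lineage-positive cells were removed from marrow and the rest sorted by c-Kit and Sca-1, which enriches stem and early progenitor cells, and the labels record no doxycycline for it. The labels give 3 animals per genotype and no animal for a library, so the p-values measure the spread between libraries. The sources used here give neither age nor the promoter behind the inducible allele.

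Polycomb repressive complex 2 (PRC2) methylates histone H3 at repressed genes, and Polycomb repressive complex 1 (PRC1) reads that mark and ubiquitinates histone H2A. Dnmt enzymes methylate cytosine in CpG dinucleotides, and Tet enzymes oxidise methylcytosine, the first step of its removal. In blood, several of these genes are known for roles in stem cell self-renewal, and TET2, DNMT3A, ASXL1 and EZH2 are recurrently mutated in human myeloid malignancy.

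Library totals ran from 10921521 to 22706882 counts. Levels are CPM, counts scaled to the library total, and levels of different genes are compared only per kilobase of the gene's deposited width. The iMLL-ENL total and wt LSK libraries form 1 count table and the B220 HIGH and B220 LOW libraries another, and each comparison stayed within its table. Genes were tested with edgeR's quasi-likelihood F test, and "called" means a Benjamini-Hochberg adjusted p under 0.05 over all genes tested. The 2 groups of the first comparison are different cell populations as well as different genotypes, and these cannot be told apart. The 8 stem and progenitor markers summed to 157 to 239.7 CPM in iMLL-ENL total libraries, against 3345 to 3814 CPM in wt LSK libraries. The 8 neutrophil markers summed to 5725 to 22970 CPM, against 1211 to 2043 CPM. In bulk RNA, fewer cells of a type and less RNA per cell cannot be told apart. The part of cell makeup in any result was not tested.

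Of the 38 chromatin genes, 11 (28.9%) were called between iMLL-ENL total and wt LSK, 3 higher and 8 lower. Over all 13811 genes tested, 30.6% were called, 15.5% higher and 15.1% lower, so the members' share lay near that of all genes. Chd7, Tet2 and Jarid2 were higher in leukemic marrow, and Cxxc5, Tet1, Cbx2, Dnmt3b, Kdm5b, Cbx7, Dnmt3a and Kdm1a were lower. The median log2 fold change was −0.24 over the members and 0.05 over all genes, with 14 members positive and 24 negative. The 3 libraries of each group did not overlap for 22 members (57.9%), 3 higher and 19 lower. The same held for 48.5% of all genes, 19% higher and 29.5% lower. On CPM scaled by edgeR's TMM factors, which shifts the comparison by 0.15 on the log2 scale, 20 members did not overlap, 5 higher and 15 lower, against 24.1% higher and 24.4% lower over all genes.

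**Figure D1:**
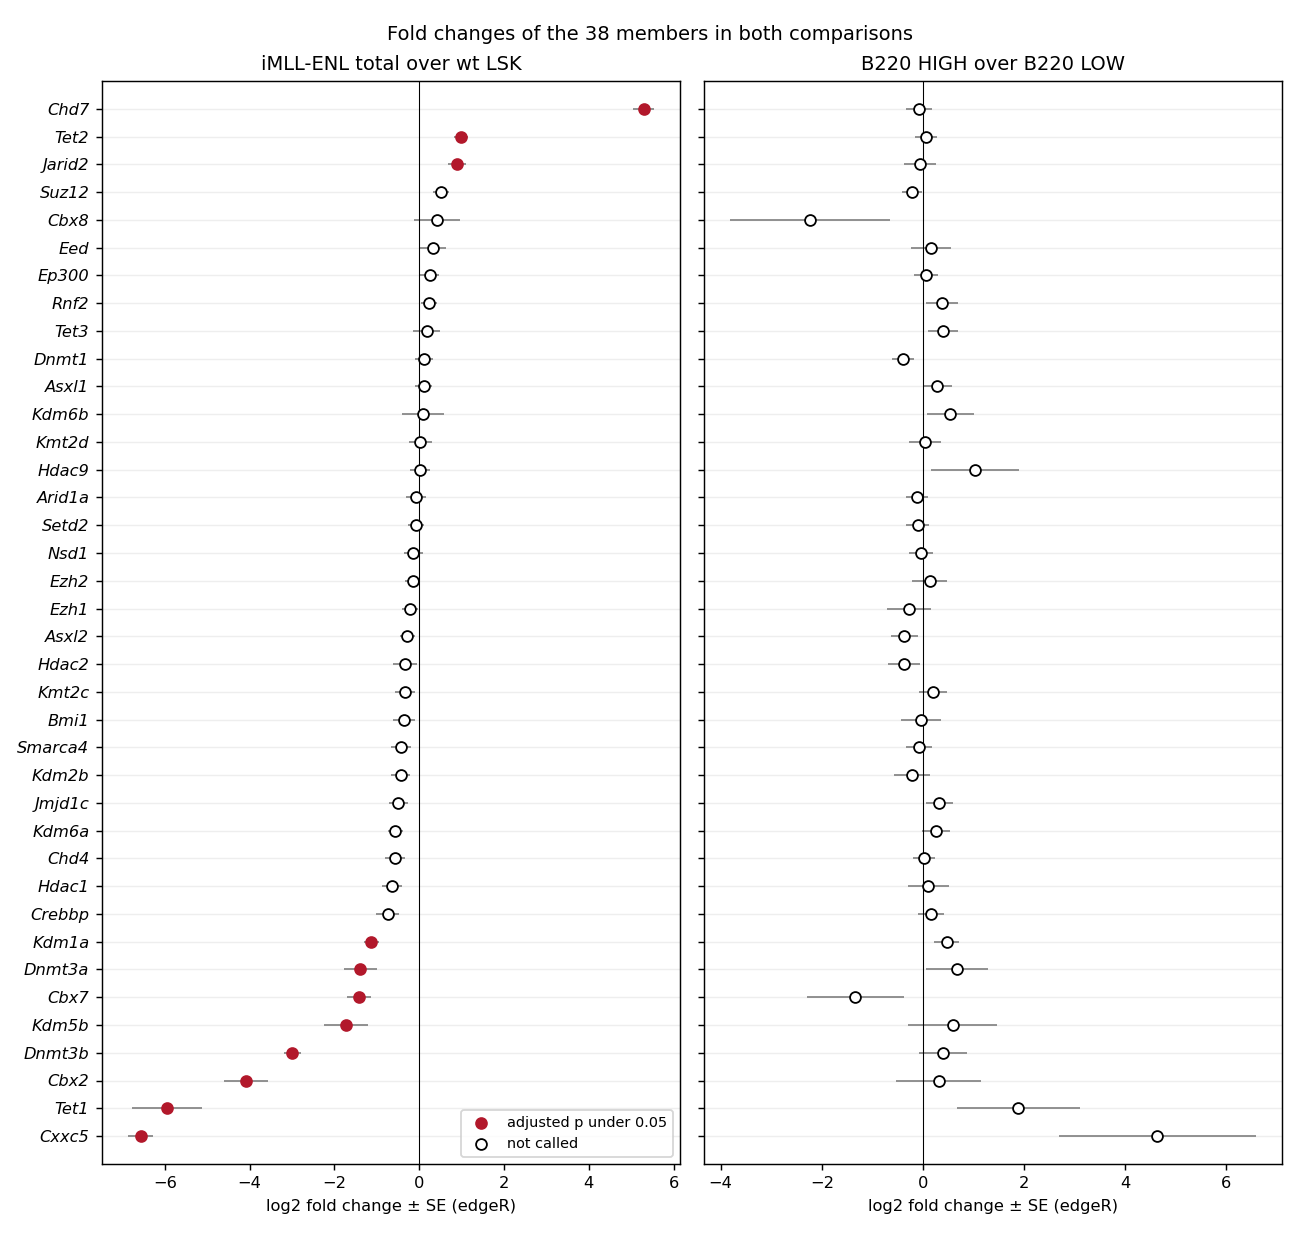
Fold changes of the 38 chromatin genes, on the log2 scale, for iMLL-ENL total over wt LSK (left) and B220 HIGH over B220 LOW (right). Points are edgeR estimates, bars are ± 1 SE, and filled points were called at an adjusted p under 0.05. The left panel has 11 filled points, from Chd7 at 5.29 to Cxxc5 at −6.57, and the right panel has 0.

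The remodelers held the largest increase among the members. Chd7, an ATPase of the CHD family (gene ID 320790, chromosome 4, bases 8690402 to 8868449 of GRCm38), had 526.1, 377.6 and 348.5 CPM in iMLL-ENL total libraries, against 9.56, 13.2 and 12.7 CPM in wt LSK libraries. The lowest leukemic library lay far above the highest wt LSK library. The log2 fold change was 5.29 (SE 0.24, edgeR adjusted p = 1.34e-05), a 39.3-fold difference. Chd4, the ATPase of the NuRD complex, had 371.3, 231.9 and 358.8 CPM in iMLL-ENL total, against 571.6, 452.6 and 549.1 CPM in wt LSK. Its groups did not overlap, with a log2 fold change of −0.56 (SE 0.23) that was not called (edgeR adjusted p = 0.106). Per kilobase, Chd7 averaged 29.5 ± 6.74 CPM in iMLL-ENL total and 0.837 ± 0.140 in wt LSK, and Chd4 averaged 49.7 ± 12 and 81.3 ± 9.80 in the same groups (SD, n = 3 each). Smarca4, an ATPase of the BAF complex, and Arid1a, a DNA-binding subunit of it, were not called, at −0.42 (SE 0.24) and −0.07 (SE 0.24) on the log2 scale.

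Among the 5 PRC2 genes, 1 was called. Jarid2, a cofactor that helps bring PRC2 to its target genes, had 382.3, 247.4 and 299.6 CPM in iMLL-ENL total libraries, against 208.0, 171.1 and 174.8 CPM in wt LSK libraries. All leukemic libraries exceeded all wt LSK libraries, with a log2 fold change of 0.89 (SE 0.21, edgeR adjusted p = 0.0139). Without wt LSK replicate 2 or 3 the log2 fold change of Jarid2 was 0.76 and 0.85, and the call was lost (edgeR adjusted p = 0.074 and 0.0739). Leaving out those libraries also lowered the share of all genes called, to 21.9% and 18.5%.

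None of the other PRC2 genes was called. Ezh2, the main catalytic subunit, had 226.1, 226.9 and 196.2 CPM in iMLL-ENL total, against 296.7, 239.6 and 263.1 CPM in wt LSK, a log2 fold change of −0.15 (SE 0.18, edgeR adjusted p = 0.552). Ezh1, the other catalytic subunit, had 65.3, 50.0 and 64.7 CPM, against 73.8, 80.2 and 77.8 CPM, a log2 fold change of −0.21 (SE 0.19, edgeR adjusted p = 0.441). Both genes were lower in every leukemic library by CPM, while only Ezh1 stayed apart on TMM-scaled CPM. Ezh2 made up 88.5% ± 2.02 of the summed Ezh level per kilobase in iMLL-ENL total and 88.1% ± 1.55 in wt LSK (SD, n = 3 each). Suz12, a core subunit, had a log2 fold change of 0.51 (SE 0.18, edgeR adjusted p = 0.0694), and Eed, which binds the methylated histone tail, 0.32 (SE 0.31). The Eed mean was carried by iMLL-ENL total replicate 2 at 139.9 CPM, with the other leukemic libraries at 65.4 and 65.6 and wt LSK between 74.0 and 84.8 CPM. Without that library the Eed log2 fold change was −0.13. Eed shares 6.82% of its exon bases with a gene on the opposite strand. The kit does not keep strand, so its value is uncertain.

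Of the 8 genes of PRC1 and of the complex that opposes it, 2 were called, both lower. Cbx2, a chromodomain protein that docks PRC1 on methylated histone H3 (gene ID 12416, chromosome 11, bases 119023019 to 119031275), had 1.30, 0.667 and 2.69 CPM in iMLL-ENL total libraries, against 29.7, 33.3 and 26.8 CPM in wt LSK libraries. All leukemic libraries lay far below all wt LSK libraries, and the highest of them held 61 Cbx2 counts. The log2 fold change was −4.09 (SE 0.52, edgeR adjusted p = 0.000752). It was −4.83 when iMLL-ENL total replicate 3 was left out. Cbx7, a second such reader, had 10.6, 11.2 and 9.87 CPM, against 21.8, 42.6 and 30.7 CPM, a log2 fold change of −1.42 (SE 0.29, edgeR adjusted p = 0.00727). The leukemic libraries sat close together below the lowest wt LSK library. Cbx8, the remaining member of this family, had 3.57, 1.83 and 2.69 CPM, against 1.72, 3.29 and 1.79 CPM, and its groups overlapped (log2 fold change 0.42, SE 0.54).

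The makeup of the Cbx family differed between the groups. Summed over Cbx2, Cbx7 and Cbx8, the level per kilobase averaged 4.12 CPM in iMLL-ENL total and 15 CPM in wt LSK. Cbx2 held 9.79% ± 6.06 of that sum in iMLL-ENL total and 54.3% ± 6.92 in wt LSK, while Cbx8 held 46.1% ± 7.91 and 10.6% ± 1.91 (SD, n = 3 each). Of the ligase subunits, Rnf2, the catalytic E3 ligase, had a log2 fold change of 0.23 (SE 0.18), and Bmi1, its partner, −0.35 (SE 0.25). Kdm2b, which carries a CXXC domain and brings a variant PRC1 to CpG islands, had −0.44 (SE 0.23), and Asxl1 and Asxl2, partners of the H2A deubiquitinase BAP1, had 0.10 (SE 0.20) and −0.28 (SE 0.18). None of these 5 was called. Bmi1 has a copy, Gm5946, 97.0% identical over 2660 bases, and Kdm2b shares 8.74% of its exon bases with other genes on a kit without strand, so both values are uncertain.

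DNA methylation and its oxidation held the most calls, 5 of 7 genes. Tet1 (gene ID 52463, chromosome 10, bases 62804570 to 62887469) had 13.8, 9.72 and 0.969 CPM in iMLL-ENL total libraries, against 568.9, 517.6 and 564.0 CPM in wt LSK libraries. Its log2 fold change was −5.95 (SE 0.83, edgeR adjusted p = 0.00155). It was −6.55 when iMLL-ENL total replicate 1 was left out. Every leukemic library lay far below every wt LSK library, and the leukemic libraries varied widely among themselves. Tet2 (gene ID 214133, chromosome 3, bases 133463677 to 133545136) had 612.1, 573.5 and 639.9 CPM, against 335.3, 333.9 and 355.1 CPM. The groups did not overlap and spread little, with a log2 fold change of 0.99 (SE 0.17, edgeR adjusted p = 0.00282). Tet3 had 324.8, 146.9 and 297.4 CPM, against 248.2, 193.9 and 313.0 CPM, and its groups overlapped (log2 fold change 0.18, SE 0.32). Summed per kilobase, the 3 Tet genes averaged 78.4 CPM in iMLL-ENL total and 91.0 CPM in wt LSK. Within that sum Tet1 held 0.745% ± 0.579 in iMLL-ENL total and 42.2% ± 1.96 in wt LSK, and Tet2 held 72.5% ± 7.04 and 34.8% ± 2.02 (SD, n = 3 each).

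The de novo methyltransferases were both lower in leukemic marrow, and the maintenance enzyme was not called. Dnmt3b (gene ID 13436, chromosome 2, bases 153649411 to 153687730) had 16.8, 15.6 and 17.3 CPM in iMLL-ENL total libraries, against 153.9, 135.8 and 148.2 CPM in wt LSK libraries. Its groups were tight and far apart, with a log2 fold change of −2.99 (SE 0.20, edgeR adjusted p = 4.21e-05). Dnmt3a had 132.1, 40.2 and 61.6 CPM, against 236.0, 206.4 and 233.2 CPM, a log2 fold change of −1.39 (SE 0.39, edgeR adjusted p = 0.0261). The groups did not overlap, but iMLL-ENL total replicate 1 stood above the other leukemic libraries. The adjusted p of Dnmt3a was 0.0719 without iMLL-ENL total replicate 3, and 0.0813, 0.0517 and 0.0742 without wt LSK replicates 1, 2 and 3. Dnmt1, which copies methylation after replication, had a log2 fold change of 0.11 (SE 0.21), and it held 83.7% ± 3.06 of the summed Dnmt level per kilobase in iMLL-ENL total and 50.5% ± 2.28 in wt LSK (SD, n = 3 each). The 10 proliferation markers summed to 4827 to 5461 CPM in iMLL-ENL total, against 3742 to 4615 CPM in wt LSK. Of these markers 5 were called, all higher, and 5 were not. The largest, Mki67, averaged 2999 and 2460 CPM and was not called (edgeR adjusted p = 0.146). The groups overlapped for Top2a, Mcm2 and Pcna.

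The last gene of this group, Cxxc5, had the largest decrease of the members. It encodes a zinc finger protein of the CXXC type, which binds unmethylated CpG. Its level was 1.30, 1.0 and 0.705 CPM in iMLL-ENL total libraries, against 94.3, 121.4 and 102.2 CPM in wt LSK libraries. The log2 fold change was −6.57 (SE 0.29, edgeR adjusted p = 1.19e-05), with 16 to 28 counts left in each leukemic library.

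**Figure D2:**
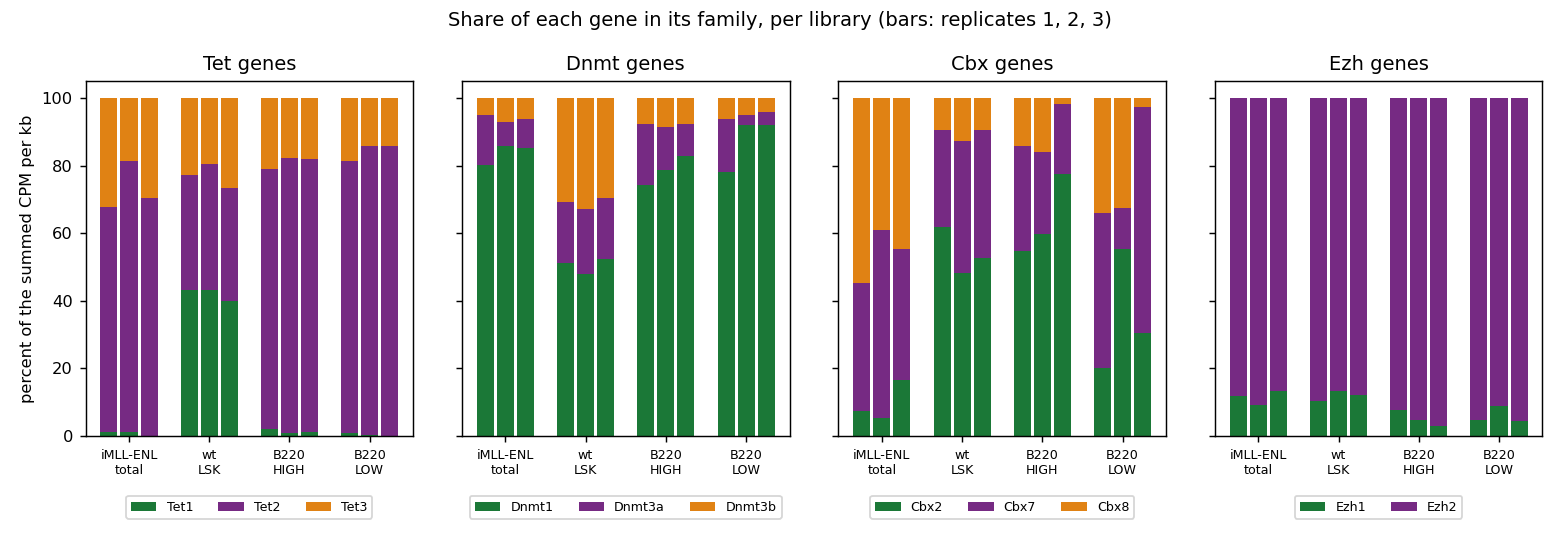
Share of each gene in its family's summed CPM per kilobase of gene width, in percent, for the Tet, Dnmt, Cbx (Cbx2, Cbx7 and Cbx8) and Ezh genes. Each bar is 1 library, in the order of replicates 1, 2 and 3, and colours mark genes. The Tet1 share averaged 0.745% in iMLL-ENL total, 42.2% in wt LSK, 1.40% in B220 HIGH and 0.386% in B220 LOW, while the Ezh2 share lay between 86.6% and 97.2% in all libraries.

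Promoter sequence was looked up in a RefSeq table of build GRCm38.p6, which held 44 promoters for 32 of the 38 genes. Cbx2, Hdac1, Kdm6b, Cxxc5, Nsd1 and Chd7 had no entry there. In the 250 bases before the start, the member promoters held a median of 22.5 CpG dinucleotides, against 6 over all 32851 promoters of the table. At least 10 were present in 40 of the 44, against 37.8% of all promoters. A GC box, GGGCGG on either strand, was present in at least 1 promoter of 27 of the 32 genes, and in 32.7% of all promoters. The other motifs searched, on both strands, were an ETS core CCGGAA in 5 of 32 genes (12% of all promoters), an E box CACGTG in 4 (6.02%), a RUNX core TGTGGT in 5 (14.0%) and a MEIS core TGACAG in 3 (15.9%). The ETS core, the E box and the GC box each contain a CpG, so their shares move with it, and a gene with several promoters counts if any holds the motif. These letters are a description of the windows and not of binding.

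The 200 bases upstream of the RefSeq start are given for 3 genes that were lower and 1 that was higher in leukemic marrow, since the proteins they encode write, erase or read CpG methylation and Polycomb marks. They are printed 5′ to 3′ along the gene's own strand, with CG dinucleotides in capitals. Tet1 (chr10:62887325-62887524, minus strand) holds 12 and Dnmt3b (chr2:153649249-153649448, plus strand) 20. Cbx7 (chr15:79932647-79932846, minus strand) holds 22 and Tet2 (chr3:133544391-133544590, minus strand) 40. The higher gene, Tet2, has the densest CG run of the 4 and Tet1 the sparsest, as a description of 4 windows. In the longer windows counted above, the called higher genes with an entry held 51 CpG (Tet2) and 23 and 22 (Jarid2). The called lower genes held 13 (Kdm5b), 15 (Tet1), 21 (Dnmt3b), 21 (Kdm1a), 23 (Cbx7), and 38, 40 and 15 (Dnmt3a). These ranges overlapped, so CpG number did not separate the higher from the lower genes.
Tet1: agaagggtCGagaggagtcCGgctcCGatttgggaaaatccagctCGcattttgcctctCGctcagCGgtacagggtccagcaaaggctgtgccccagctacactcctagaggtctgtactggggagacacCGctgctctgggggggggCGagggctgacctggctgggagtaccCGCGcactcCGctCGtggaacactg
Dnmt3b: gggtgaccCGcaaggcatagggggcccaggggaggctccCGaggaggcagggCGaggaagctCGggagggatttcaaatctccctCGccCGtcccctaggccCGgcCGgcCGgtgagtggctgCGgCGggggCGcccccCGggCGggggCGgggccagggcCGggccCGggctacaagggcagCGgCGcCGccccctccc
Cbx7: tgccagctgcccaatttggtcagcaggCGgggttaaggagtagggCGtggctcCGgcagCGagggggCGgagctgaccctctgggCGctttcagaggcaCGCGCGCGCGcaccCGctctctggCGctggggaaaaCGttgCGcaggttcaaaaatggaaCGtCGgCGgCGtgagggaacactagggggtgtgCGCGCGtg
Tet2: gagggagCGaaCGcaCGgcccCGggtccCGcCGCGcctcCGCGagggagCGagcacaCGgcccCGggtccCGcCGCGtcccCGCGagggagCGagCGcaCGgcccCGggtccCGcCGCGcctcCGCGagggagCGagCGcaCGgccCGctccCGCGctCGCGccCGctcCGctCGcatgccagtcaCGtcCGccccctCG

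Of the 5 histone demethylases, 2 were called, both lower. Kdm1a, the LSD1 demethylase of histone H3 lysine, had 49.5, 46.6 and 51.4 CPM in iMLL-ENL total libraries, against 103.9, 134.7 and 123.0 CPM in wt LSK libraries. The leukemic libraries spanned a narrow range below all wt LSK libraries, with a log2 fold change of −1.13 (SE 0.18, edgeR adjusted p = 0.00214). Kdm5b, a demethylase of the mark found at active promoters, had 83.3, 61.2 and 15.3 CPM, against 155.3, 249.6 and 181.7 CPM, a log2 fold change of −1.73 (SE 0.52, edgeR adjusted p = 0.0359). Its groups did not overlap, but the leukemic libraries differed more among themselves than those of Kdm1a. The Kdm5b call was lost without iMLL-ENL total replicate 2 (adjusted p = 0.11), without wt LSK replicates 1, 2 or 3 (0.067, 0.0926 and 0.08) and when low counts were not filtered (0.061). Kdm6a, which removes the PRC2 mark, had a log2 fold change of −0.56 (SE 0.19, edgeR adjusted p = 0.0515) with groups that did not overlap. It passed the threshold under DESeq2 (0.0345) and under edgeR with RLE scaling (0.0438). Jmjd1c, a member of the Jumonji family, had −0.49 (SE 0.22), and Kdm6b, a paralog of Kdm6a, had 0.09 (SE 0.50). Kdm6b was highest in iMLL-ENL total replicate 3 at 77.0 CPM, with the other leukemic libraries at 29.0 and 23.9 CPM and wt LSK at 66.0, 37.7 and 31.7 CPM. Without that leukemic library its log2 fold change was −0.71. Kdm6b shares 4.11% of its exon bases with a gene on the opposite strand, which the kit cannot separate.

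None of the 4 methyltransferases of the marks of active genes and none of the 5 acetylation genes was called. Among the methyltransferases, Kmt2c and Kmt2d, which act at enhancers, had log2 fold changes of −0.33 (SE 0.23) and 0.03 (SE 0.28). Setd2 and Nsd1, which act on the lysine methylated over gene bodies, had −0.08 (SE 0.19) and −0.14 (SE 0.22), and the groups overlapped for all 4. Crebbp, a histone acetyltransferase, had 368.4, 189.8 and 335.0 CPM in iMLL-ENL total libraries, against 651.0, 499.6 and 506.4 CPM in wt LSK libraries. Its groups did not overlap, with a log2 fold change of −0.75 (SE 0.28, edgeR adjusted p = 0.0743), and it passed under DESeq2 (0.0402). Its paralog Ep300 had a log2 fold change of 0.24 (SE 0.23). The deacetylase Hdac1 had −0.65 (SE 0.23, edgeR adjusted p = 0.0662) and passed under DESeq2 (0.017) and under RLE scaling (0.0484), but it has a copy, Gm10093, 99.4% identical over 1444 bases, so its value is uncertain. Hdac2 had −0.32 (SE 0.28). Hdac9 had 35.8, 30.9 and 41.8 CPM in iMLL-ENL total, against 34.2, 46.9 and 38.9 CPM in wt LSK, a log2 fold change of 0.02 (SE 0.23).

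Several members were lowest in iMLL-ENL total replicate 2. Kmt2d had 337.8 CPM there, against 618.8 and 599.9 CPM in the other iMLL-ENL total libraries. Kmt2c, Nsd1, Chd4, Smarca4 and Arid1a were also lowest in that library. Other members were highest there, among them Suz12, Hdac2, Eed and Asxl2, the last at 359.5 CPM against 280.3 and 280.6 CPM. Genes wider than 10 kilobases took 10.4% of the counts of that library, 13.3% and 12.5% in the other iMLL-ENL total libraries, and 15.4%, 13.1% and 15.2% in wt LSK. By deposited width Kmt2d, Kmt2c and Nsd1 are in that class, as is Asxl2 (10693 bases). Chd4, Smarca4 and Arid1a are not (6448, 6475 and 8565 bases). Whether that share of counts has a part in these members' values was not tested.

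Ratios of related genes within a library do not depend on how libraries are scaled. For 10 of 14 ratios the 3 leukemic and 3 wt LSK libraries did not overlap, each with an exact two-sided permutation p of 0.1, the smallest that 3 against 3 allows (0.14 after Benjamini-Hochberg adjustment over the 14). The share among ratios of other gene pairs was not computed, and 48.5% of single genes did not overlap. The pairs are of members chosen with these results known, some of them called above, so the count is a description. The widest gap was in Tet1/Tet2, where the log2 ratio of counts was −5.47, −5.88 and −9.34 in iMLL-ENL total libraries, against 0.76, 0.63 and 0.67 in wt LSK libraries. The ratio, not scaled by gene width, was positive in every wt LSK library and negative in every leukemic one. Chd7/Chd4 went the other way, at 0.50, 0.70 and −0.04, against −5.90, −5.09 and −5.43. Cbx2/Cbx7 averaged −2.96 ± 1.07 in iMLL-ENL total and −0.03 ± 0.43 in wt LSK, and Dnmt3b/Dnmt3a averaged −2.06 ± 0.83 and −0.62 ± 0.03 (SD, n = 3 each). Crebbp/Ep300 averaged −1.31 ± 0.17 in iMLL-ENL total and −0.31 ± 0.13 in wt LSK. Also without overlap were Cbx8/Cbx7, Hdac9/Hdac1 and Kmt2d/Kmt2c, higher by 1.80, 0.66 and 0.34, and Tet3/Tet2 and Bmi1/Rnf2, at −0.86 and −0.61. The groups overlapped for Ezh2/Ezh1, Asxl2/Asxl1, Kdm6b/Kdm6a and Hdac2/Hdac1.

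**Figure D3:**
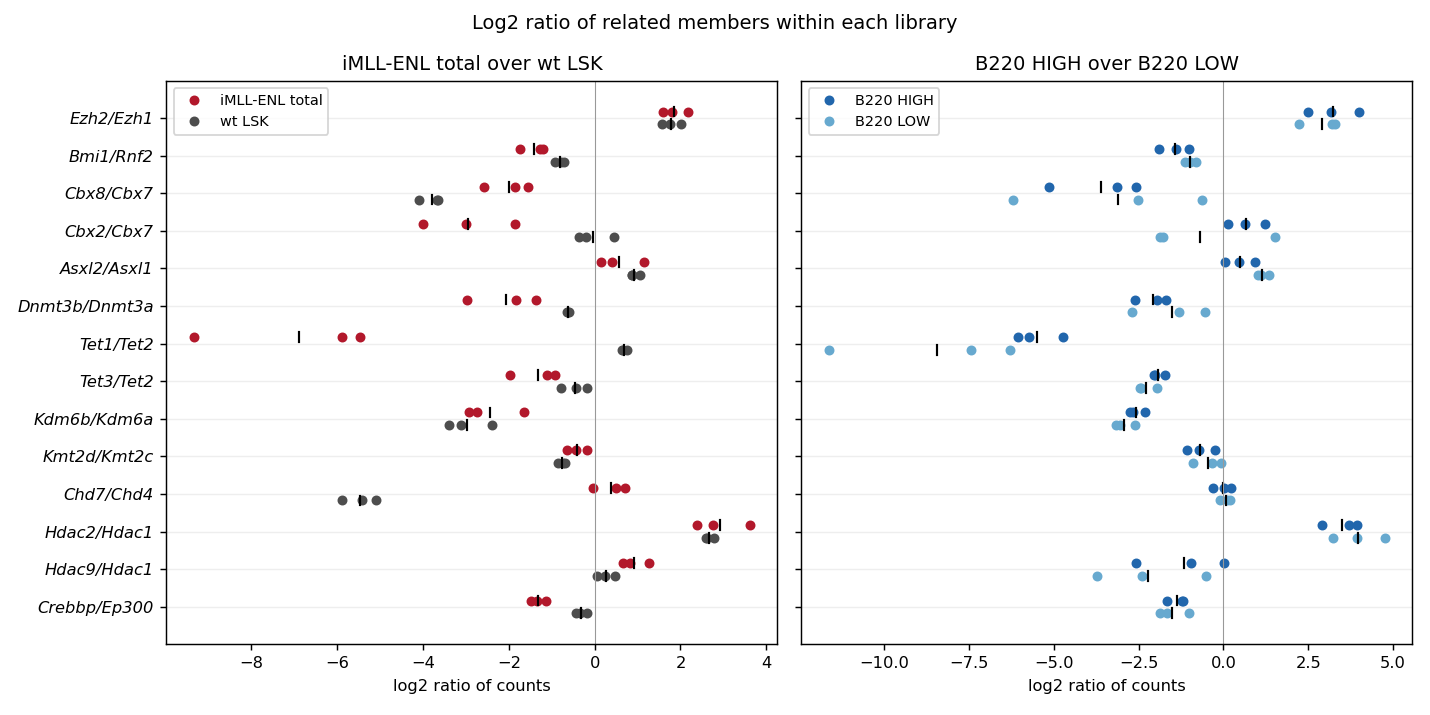
Log2 ratio of counts of 14 pairs of related genes within each library, with 0.5 counts added to each. Left: iMLL-ENL total above, wt LSK beneath it. Right: B220 HIGH above, B220 LOW beneath it. Points are libraries and black ticks are group means. Tet1/Tet2 lies between −9.34 and −5.47 in iMLL-ENL total and between 0.63 and 0.76 in wt LSK, and Ezh2/Ezh1 overlaps in both panels.

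The rest of the same complexes was read from 127 other chromatin genes listed by function, of which 125 were tested and 34 (27.2%) were called, 13 higher and 21 lower. This share, too, lay near the 30.6% of all genes. The 2 called genes with the smallest p of each list are named here. Of 8 other PRC2 subunits, 2 were called, both higher: Rbbp4, a histone chaperone, and Phf19, a Polycomb-like protein, at 1.02 (SE 0.23) and 1.26 (SE 0.35) on the log2 scale. Of 17 other PRC1 and deubiquitinase subunits tested, 3 were higher and 4 lower, led by Phc1, a Polyhomeotic protein, at −1.76 (SE 0.23) and Pcgf6, a Bmi1 relative, at −1.81 (SE 0.25).

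Of 12 other DNA methylation genes tested, 3 were higher and 2 lower. Idh1, whose product makes the ketoglutarate that Tet and Jumonji enzymes use, averaged 166.4 ± 16.9 CPM in iMLL-ENL total and 37.0 ± 10.5 CPM in wt LSK (SD, n = 3 each), a log2 fold change of 2.33 (SE 0.24). Dnmt3l, a cofactor of the Dnmt3 enzymes without activity of its own, had 7.32, 14.0 and 10.3 CPM in iMLL-ENL total libraries, against 0, 0 and 0.153 CPM in wt LSK libraries. That is 644 counts against 3, a CPM ratio of 195 (95% exact interval 66.3 to 945.9, which covers counting error only and not the spread between libraries). Of 29 other remodelers, 1 was higher and 8 lower, led by Chd6, a relative of Chd7, at −1.30 (SE 0.16) and Mta3, a NuRD subunit, at −1.58 (SE 0.26). Of 28 other acetylation genes, 3 were higher and 5 lower, led by the deacetylase Hdac7 at −1.74 (SE 0.23) and the acetyltransferase Kat6b at −1.49 (SE 0.27). Of 12 other demethylases 1 was called, Kdm7a, at 1.35 (SE 0.40). Of 19 other histone methyltransferases 2 were called: Setd7 at −1.06 (SE 0.18) and Kmt2a at −1.39 (SE 0.26). Whether counts of Kmt2a include reads from the fusion is not known from the files.

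The second comparison set B220 HIGH against B220 LOW, 2 fractions of the leukemic marrow. None of the 38 members was called by edgeR, and 0 of 12564 genes (0%) were called in all. At an unadjusted p under 0.05 there were 880 genes and 1 member, Cxxc5. DESeq2 called 302 genes and the fit with the replicate number as a block 79 (0.629%), each with 0 members among them. The groups did not overlap for 2 members (5.26%), both lower, against 13.4% of all genes, 6.2% higher and 7.22% lower. Suz12 had 486.5, 428.4 and 433.1 CPM in B220 HIGH, against 577.4, 498.1 and 535.0 CPM in B220 LOW. Dnmt1 had 301.4, 220.1 and 228.9 CPM in B220 HIGH, against 316.2, 330.8 and 361.3 CPM in B220 LOW. Neither was called, at −0.21 (SE 0.20) and −0.40 (SE 0.22) on the log2 scale. On TMM-scaled CPM 6 members did not overlap, the same 2 and, higher, Dnmt3b, Rnf2, Tet1 and Kdm1a, against 6.52% higher and 5.64% lower over all genes.

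Of the 11 genes called in the first comparison, 6 had fold changes within 1 SE of 0 between the B220 fractions in the fit without the block: Chd7, Tet2, Jarid2, Dnmt3b, Cbx2 and Kdm5b. With the replicate number as a block, Kdm5b lay beyond 1 SE, at 0.76 (SE 0.25, edgeR adjusted p = 0.279), and was not called. Chd7 had 351.6, 218.6 and 236.3 CPM in B220 HIGH libraries, against 384.7, 271.1 and 220.3 CPM in B220 LOW libraries, a log2 fold change of −0.07 (SE 0.25). Tet2 had 389.0, 330.2 and 307.6 CPM, against 408.3, 326.1 and 284.2 CPM (0.06, SE 0.21). Dnmt3b had 19.1, 14.8 and 13.2 CPM, against 15.5, 11.5 and 10.04 CPM (0.40, SE 0.47). The fractions overlapped for each of these genes by CPM. Dnmt3b was higher in B220 HIGH in all 3 replicate numbers, at 0.40 (SE 0.49, edgeR adjusted p = 0.794) with the number as a block. Ezh2 varied more within B220 HIGH, at 206.4, 153.4 and 324.4 CPM, than it differed from B220 LOW, at 199.0, 194.5 and 256.4 CPM (0.13, SE 0.34). Jarid2 had 209.4, 181.8 and 105.3 CPM, against 268.1, 125.0 and 143.0 CPM (−0.06, SE 0.32). Chd4 had a log2 fold change of 0.02 (SE 0.21).

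Tet1, Cxxc5, Hdac9 and the Cbx readers had low levels in both fractions, and their estimates had SEs of 0.85 to 1.95 on the log2 scale. Tet1 had 14.6, 4.98 and 5.71 CPM in B220 HIGH libraries, against 5.24, 1.86 and 0.0601 CPM in B220 LOW libraries. In each replicate number Tet1 was higher in B220 HIGH, and the log2 fold change was 1.89 (SE 1.22, edgeR adjusted p = 0.847) without the block and 2.62 (SE 1.2, adjusted p = 0.424) with it. Cxxc5 had 1.01, 17.5 and 0.253 CPM in B220 HIGH libraries, against 0.0655, 0 and 0.662 CPM in B220 LOW libraries. Its log2 fold change of 4.64 (SE 1.95, edgeR adjusted p = 0.692) rests on B220 HIGH replicate 2 and was 1.24 without it. Hdac9, a class II deacetylase, had 4.49, 17.8 and 10.01 CPM, against 1.77, 4.24 and 10.1 CPM (1.03, SE 0.87).

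Cbx8 had 1 count in replicate 3 of both fractions. It had 0.732, 0.249 and 0.0506 CPM in B220 HIGH, against 3.54, 1.34 and 0.0601 CPM in B220 LOW (−2.23, SE 1.58). Cbx7 had 6.87, 1.59 and 2.63 CPM, against 20.3, 2.08 and 6.68 CPM (−1.34, SE 0.96), and Cbx2 7.60, 2.49 and 6.22 CPM, against 5.57, 6.10 and 1.92 CPM (0.31, SE 0.85). Cbx7 was lower in B220 HIGH by CPM in all 3 replicate numbers, and Cbx2 was not. Cbx8 was lower in replicates 1 and 2, and the 1 count per fraction in replicate 3 gives no direction. Of the 14 ratios, 2 did not overlap between the fractions, each at an exact permutation p of 0.1 (0.7 adjusted): Tet1/Tet2, higher by 2.93 in B220 HIGH, and Asxl2/Asxl1, at −0.68. Without B220 LOW replicate 3, which held 1 Tet1 count, the Tet1/Tet2 difference was 1.34. The share among ratios of other gene pairs was not computed here either.

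Replicate number 1 stood apart for a few members in both fractions. Kdm5b had 227.9, 57.6 and 35.2 CPM in B220 HIGH, against 170.2, 23.9 and 25.4 CPM in B220 LOW, so that replicate 1 exceeded the other replicates of its fraction. Dnmt3a had 117.1, 57.9 and 42.5 CPM, against 101.2, 16.7 and 24.9 CPM. With the number as a block, the log2 fold changes were 0.76 (SE 0.25, edgeR adjusted p = 0.279) for Kdm5b and 0.96 (SE 0.35, 0.316) for Dnmt3a. The 8 stem and progenitor markers summed to 203 to 381 CPM in B220 HIGH and 93.6 to 109 CPM in B220 LOW, and the neutrophil markers to 219.9 to 14600 CPM and 1375 to 6443 CPM. Much of the B220 HIGH stem sums came from Cd34 (136.0, 34.6 and 289.3 CPM) and Ly6a (10.5, 284.8 and 6.88 CPM). Kit went the other way, averaging 29.8 CPM in B220 HIGH and 41.6 CPM in B220 LOW. Of the neutrophil markers, Mmp8 was higher and Elane and Prtn3 lower in B220 HIGH without overlap, and 5 overlapped. The part of these markers in the members' values was not tested. None of the 122 other chromatin genes tested was called by edgeR or DESeq2 here, and 7 had an unadjusted p under 0.05.

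**Figure D4:**
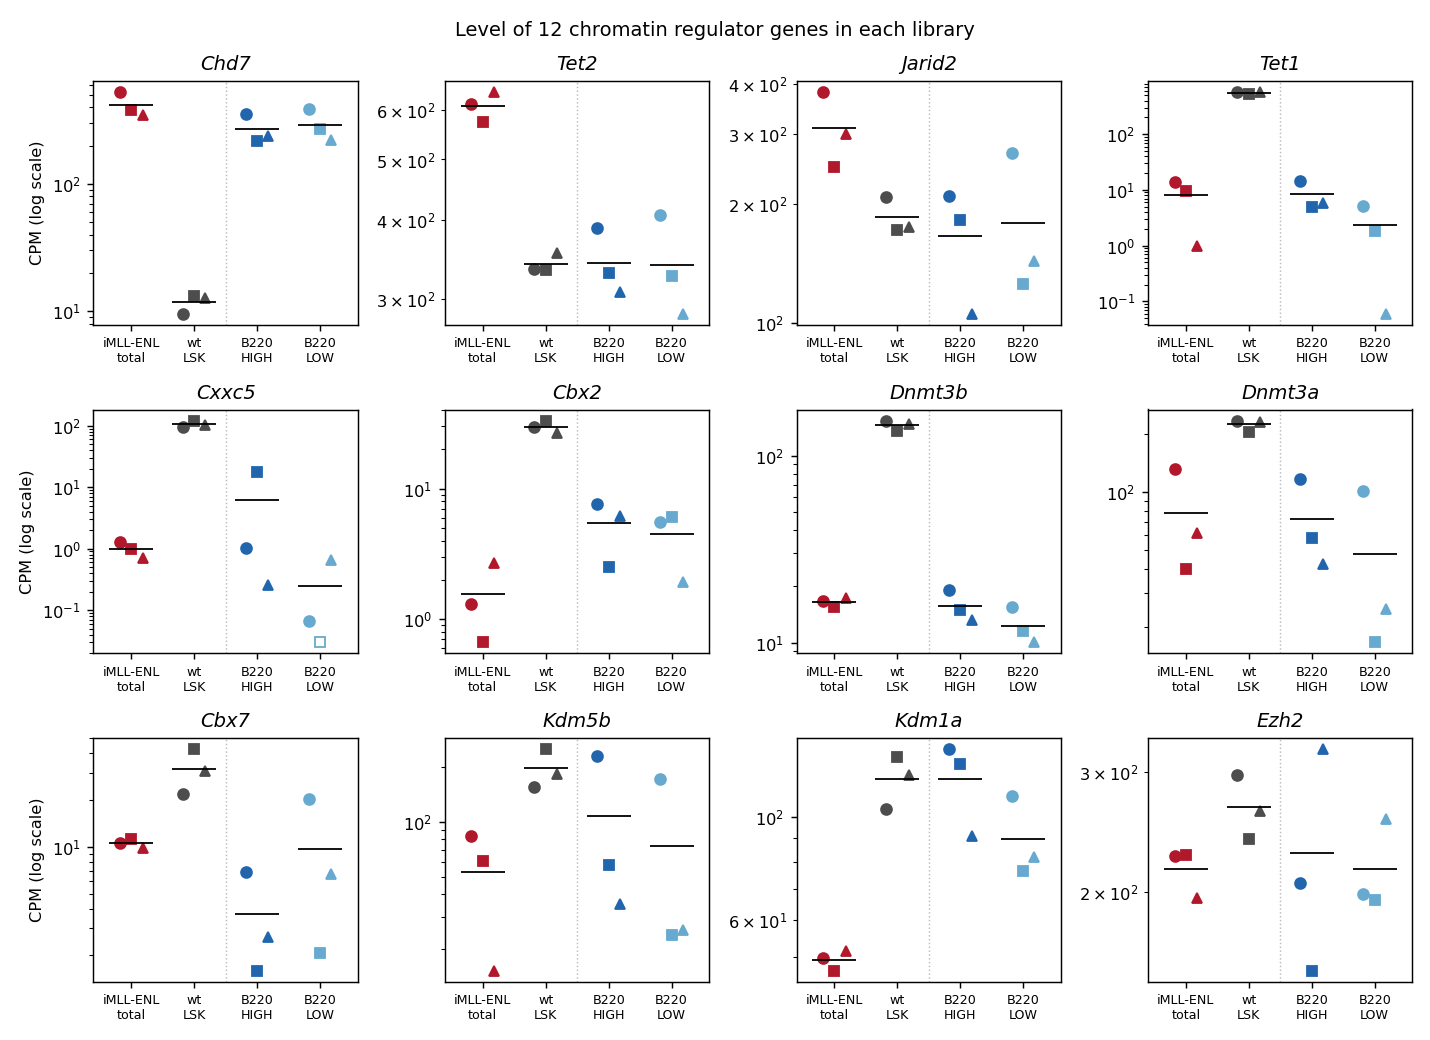
Level of 12 of the 38 chromatin genes in each library, in CPM on a log scale, for iMLL-ENL total, wt LSK, B220 HIGH and B220 LOW. Circles, squares and triangles are replicates 1, 2 and 3, black lines are group means, the open square at the bottom of the Cxxc5 panel is a library with 0 counts, and the dotted line separates the deposited tables. Chd7 is at 218.6 CPM or more in all 9 leukemic libraries and at 13.2 CPM or less in wt LSK, and Kdm1a is at 46.6 to 51.4 CPM in iMLL-ENL total.

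Set side by side across both tables, as levels and with no test, the 9 leukemic libraries lay above all 3 wt LSK libraries for 1 member and below them for 16, and overlapped them for 21. Over the 12240 genes tested in both tables, 9.98% lay above and 14% below. These counts use CPM over the library total and were not repeated on TMM-scaled CPM. The members were chosen with these libraries' results known, so the count is a description. The member above was Chd7, at 218.6 to 526.1 CPM, against 9.56 to 13.2 CPM. Tet1 lay below, at 0.0601 to 14.6 CPM (median 5.24), against 517.6 to 568.9 CPM. Cxxc5 did too, at 0 to 17.5 CPM (median 0.705), against 94.3 to 121.4 CPM. Dnmt3b, at 10.04 to 19.1 CPM against 135.8 to 153.9 CPM, and Cbx2, at 0.667 to 7.60 CPM against 26.8 to 33.3 CPM, also lay below, as did Cbx7 and Dnmt3a.

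For the other called members of the first comparison, the sorted libraries overlapped wt LSK. Tet2 averaged 608.5 CPM in iMLL-ENL total, but 342.3 CPM in B220 HIGH and 339.6 CPM in B220 LOW, beside 341.4 CPM in wt LSK. Jarid2 averaged 309.8 CPM in iMLL-ENL total, 165.5 and 178.7 CPM in the B220 fractions, and 184.6 CPM in wt LSK. Kdm1a averaged 49.2 CPM in iMLL-ENL total, 120.5 CPM in B220 HIGH, 89.7 CPM in B220 LOW and 120.5 CPM in wt LSK. Kdm5b averaged 53.2 CPM in iMLL-ENL total, 106.9 CPM in B220 HIGH, 73.2 CPM in B220 LOW and 195.6 CPM in wt LSK. Its overlap came from replicate 1 of both fractions, at 227.9 and 170.2 CPM, with the other sorted libraries at 23.9 to 57.6 CPM, below all wt LSK libraries. These tables were deposited apart, so table and population cannot be told apart in these differences, and they are not a comparison.

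Among members not called in the first comparison, Ezh1, Bmi1, Kdm2b, Asxl2, Kdm6a, Jmjd1c, Chd4, Smarca4, Hdac1 and Crebbp also lay below wt LSK in all 9 leukemic libraries. This holds for CPM over the library total. On TMM-scaled CPM, Bmi1, Asxl2 and Smarca4 overlapped between iMLL-ENL total and wt LSK. Crebbp spanned 118.7 to 368.4 CPM there, against 499.6 to 651.0 CPM in wt LSK. Hdac1 spanned 14.3 to 26.7 CPM, against a narrow 32.9 to 33.6 CPM. Genes wider than 10 kilobases took 7.02% to 9.57% of the counts in the B220 fractions and 10.4% to 15.4% in the other libraries. Of the uncalled members listed as below wt LSK, only Asxl2 and Jmjd1c are that wide by deposited width (10693 and 10944 bases). The part of that share in these members' levels was not tested. Hdac9 separated the tables among the leukemic groups, at 30.9 to 41.8 CPM in iMLL-ENL total and 1.77 to 17.8 CPM in the B220 fractions.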

How the data were processed

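Per the labels' protocols, a PicoPure kit gave the RNA and an unstranded NuGen Ovation kit the libraries. The authors deposited raw counts per gene and a CPM-like signal, which equals the counts over TMM effective library sizes when checked; levels and tests here use the counts. The deposited width per gene (unit: other) served for levels per kilobase, and was 0.379 to 1.048 times the exon length of GRCm38, a limit on them. The submitters' processing notes name edgeR, GRCm38 and mm10; the sources used here do not give the aligner or counter. RefSeq symbols matched 23968 of 24028 gene IDs, and 60 had none.

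Counts were tested within each table with edgeR 4.0.16 in R 4.3.3 (TMM factors, filterByExpr with a minimum count of 10, robust quasi-likelihood fit, two-sided F test, Benjamini-Hochberg adjustment over all genes tested). The fit was tested on simulated data. Levels are CPM over the library total, which gives 3 counts a level of 0.132 to 0.275 CPM. Partner ratios used 0.5 added counts and an exact permutation test. Copies were sought with minimap2 2.31.

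The members and lists were chosen with earlier results of these data known. Described in full are the members called, the Ezh, Cbx, Tet and Dnmt3 families, Chd7, Chd4, Jarid2, Hdac9 and Cxxc5, and per list of other genes the 2 called with the smallest p; values of other members are given in short.

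B220 HIGH and B220 LOW libraries of the same replicate number deviated together across genes (correlations 0.397, 0.198 and 0.307), so the number was taken to pair them, though no label says so; the block stayed an alternative. Alternatives were RLE scaling, DESeq2 1.42.0, no filter, the replicate block, leaving out each library, an offset of 2 counts for the ratios and, added after the data were seen, TMM-scaled CPM for overlap.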

Additional observations from a re-analysis of the deposited data

How the results depend on the processing

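Of the 11 members called between iMLL-ENL total and wt LSK, 8 kept their direction and call in all 10 alternatives, and Jarid2, Dnmt3a and Kdm5b lost the call in some. The number of members called was 13 with RLE scaling, 14 with DESeq2, 10 with no filter, 14 with the replicate block and 8 to 11 with 1 library left out, against 11. The share of all genes called was 30.3%, 34.2%, 21%, 29.3% and 18.5% to 31.8% under the same alternatives, against 30.6%. The count of other chromatin genes was 22 to 36 with 1 library left out, against 34, lowest without wt LSK replicate 1. Same-numbered libraries of that comparison correlated at 0.0164, 0.160 and −0.0358, so their numbers were not taken to pair them, and the replicate block added calls for Kdm6a, Chd4 and Crebbp. Between B220 HIGH and B220 LOW, 0 members were called in all 10 alternatives, and the replicate block changed no member's call. Over all genes that comparison gave 302 calls with DESeq2, 22 with no filter, 79 with the replicate block, 96 without B220 HIGH replicate 1 and 3 without B220 LOW replicate 1. Ratios apart between the fractions were 2, 5 with the replicate block (the same sign in all 3 numbers) and 2 to 7 with 1 library left out, 7 without B220 LOW replicate 1 and 4 without B220 LOW replicate 3. DESeq2 gave no adjusted p for Cxxc5 there.

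Members whose log2 fold change turned sign were uncalled under all alternatives run. In iMLL-ENL total over wt LSK, leaving out 1 library gave log2 fold changes of Eed −0.13 to 0.52, Asxl1 −0.14 to 0.26, Dnmt1 −0.0877 to 0.25, Tet3 −0.0552 to 0.46, Kdm6b −0.71 to 0.47, Setd2 −0.19 to 0.0527, Nsd1 −0.29 to 0.0374, Kmt2d −0.18 to 0.27, Arid1a −0.32 to 0.0835 and Hdac9 −0.18 to 0.13. With the replicate block, the sign also turned for Kdm6b (−0.0592) and Kmt2d (−1.61e-05). With RLE scaling, the sign also turned for Kmt2d (−0.0242) and Hdac9 (−0.0333). With DESeq2 in place of edgeR, the sign also turned for Kmt2d (−0.0275) and Hdac9 (−0.0367). With no filter on low counts, the sign also turned for Kmt2d (−0.00731) and Hdac9 (−0.0188). In B220 HIGH over B220 LOW, leaving out 1 library gave Ezh1 −0.57 to 0.0567, Ezh2 −0.27 to 0.37, Eed −0.19 to 0.52, Jarid2 −0.24 to 0.26, Bmi1 −0.24 to 0.12, Cbx2 −0.0127 to 0.67, Kdm5b −0.47 to 2.01, Setd2 −0.24 to 0.0405, Nsd1 −0.24 to 0.0974, Kmt2c −0.0169 to 0.32, Kmt2d −0.26 to 0.30, Chd7 −0.22 to 0.0936, Chd4 −0.0176 to 0.11, Smarca4 −0.27 to 0.0398, Arid1a −0.19 to 0.00128, Hdac1 −0.0321 to 0.23 and Ep300 −0.11 to 0.21. There the replicate block turned Kmt2d (−0.000547). The cause of these changes was not tested. Cxxc5, Cbx8 and Tet1 had 0 or 1 counts in at least 1 B220 library, which limits their values there.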
